A study of Homo sapiens with 6 samples.

Results

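The genes described here build the contacts of epithelial cells: the tight junctions, the desmosomes, the simple keratin filaments, the gap junction gene GJA1, and a few regulators of the epithelial state. They are 45 named genes, taken by symbol from a list that sets no threshold on a measured value but was drawn up with earlier results of these data known, out of 19977 genes in the count tables. All 45 had a matching Ensembl identifier and all 45 were among the 16505 genes tested. RNA was sequenced from aggregates of NCRM-1, a human induced pluripotent stem cell line reprogrammed from CD34+ cord blood, after 4 days of suspension culture in vertical wheel bioreactors. The 3 libraries called PEG and HS came from E8 medium with 10 mg/ml polyethylene glycol (PEG) and 0.1 µg/ml heparin sodium salt (HS). The 3 libraries called E8 control came from E8 alone, the defined medium for pluripotent cells that both groups share, and 50% of the medium had been exchanged on day 2. The study added PEG and HS to limit the fusion of aggregates, and the comparison asks which transcripts of cell contacts differed between the media.

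Each library held 26991279 to 36185138 counts. Values are given as CPM, counts relative to the library total after scaling with edgeR's TMM factors, and differences as log2 fold changes of PEG and HS over E8 control with their standard error (SE). A gene was called when the adjusted p of edgeR's quasi-likelihood test, corrected over the 16505 genes tested, was under 0.05. The sample labels speak of 1 bioreactor per medium. The medium therefore cannot be told apart from the vessel, and an adjusted p measures the spread between samples that may share a vessel. The labels' treatment text names PEG and heparin for all 6 libraries, and the treatment characteristic of each library was followed. In all libraries the 10 pluripotency markers examined were counted, with a summed level of 10308 to 10511 CPM in PEG and HS and 10414 to 10595 CPM in E8 control. The near-equal sums cover moves in both directions, since 8 of these 10 markers passed the test, PEG and HS having more of 4 and less of the other 4. In bulk RNA, fewer cells of a type and less RNA per cell cannot be told apart.

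Pluripotent stem cells of the primed kind grow as an epithelium. Tight junctions seal their apical border through claudins, occludin and other membrane proteins that bind zonula occludens scaffolds, and polarity complexes place that border. Desmosomes hold neighbouring cells together by desmosomal cadherins, which desmoplakin and armadillo proteins tie to keratin filaments. In simple epithelia these filaments are obligate pairs of a type II keratin, mainly KRT8 or KRT7, with a type I keratin, mainly KRT18 or KRT19. Gap junctions, built of connexins, couple the cytoplasm of neighbouring cells.

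Of the 45 genes, 16 (35.6%) were called. PEG and HS had the higher level for 6 of them and the lower level for 10. Among all genes tested 25.3% were called, 12.2% higher and 13.1% lower. At a mean of 1 CPM or more, 16 of 42 genes of the set were called (38.1%), against 29.6% of all genes at that level. Without PEG and HS replicate 3, 10 of the 45 were called (22.2%), against 22.5% of all genes then tested. The 6 higher genes became 3 without PEG and HS replicate 1 or 3, or without E8 control replicate 1 or 2. The genes higher in PEG and HS were CLDN10, CLDN11, F11R, KRT8, KRT18 and ESRP1. The genes lower were CLDN3, CLDN4, CLDN6, JAM2, CXADR, TJP3, KRT7, KRT19, JUP and GJA1. Only CLDN3, KRT7 and GJA1 of the 45 were both called and changed by over 1.5-fold, which is 6.67% of the set, where 4.43% of all genes tested were. The 6 libraries separated by medium for 22 genes (48.9%), 9 higher and 13 lower, where 39.3% of all genes tested separated. Most differences were small. Between media, the means of 27 of the 45 genes lay within 1.1-fold, and the median absolute log2 fold change was 0.10 in the set and 0.12 over all genes tested. Of the 29 genes not called, 24 had a 95% interval that stayed within a 1.5-fold change, and those of CLDN1, CLDN5, CLDN9, CLDN18 and CLDN23 reached it. The median log2 fold change was -0.040 in the set and 0.003 over all genes tested.

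**Figure D1:**
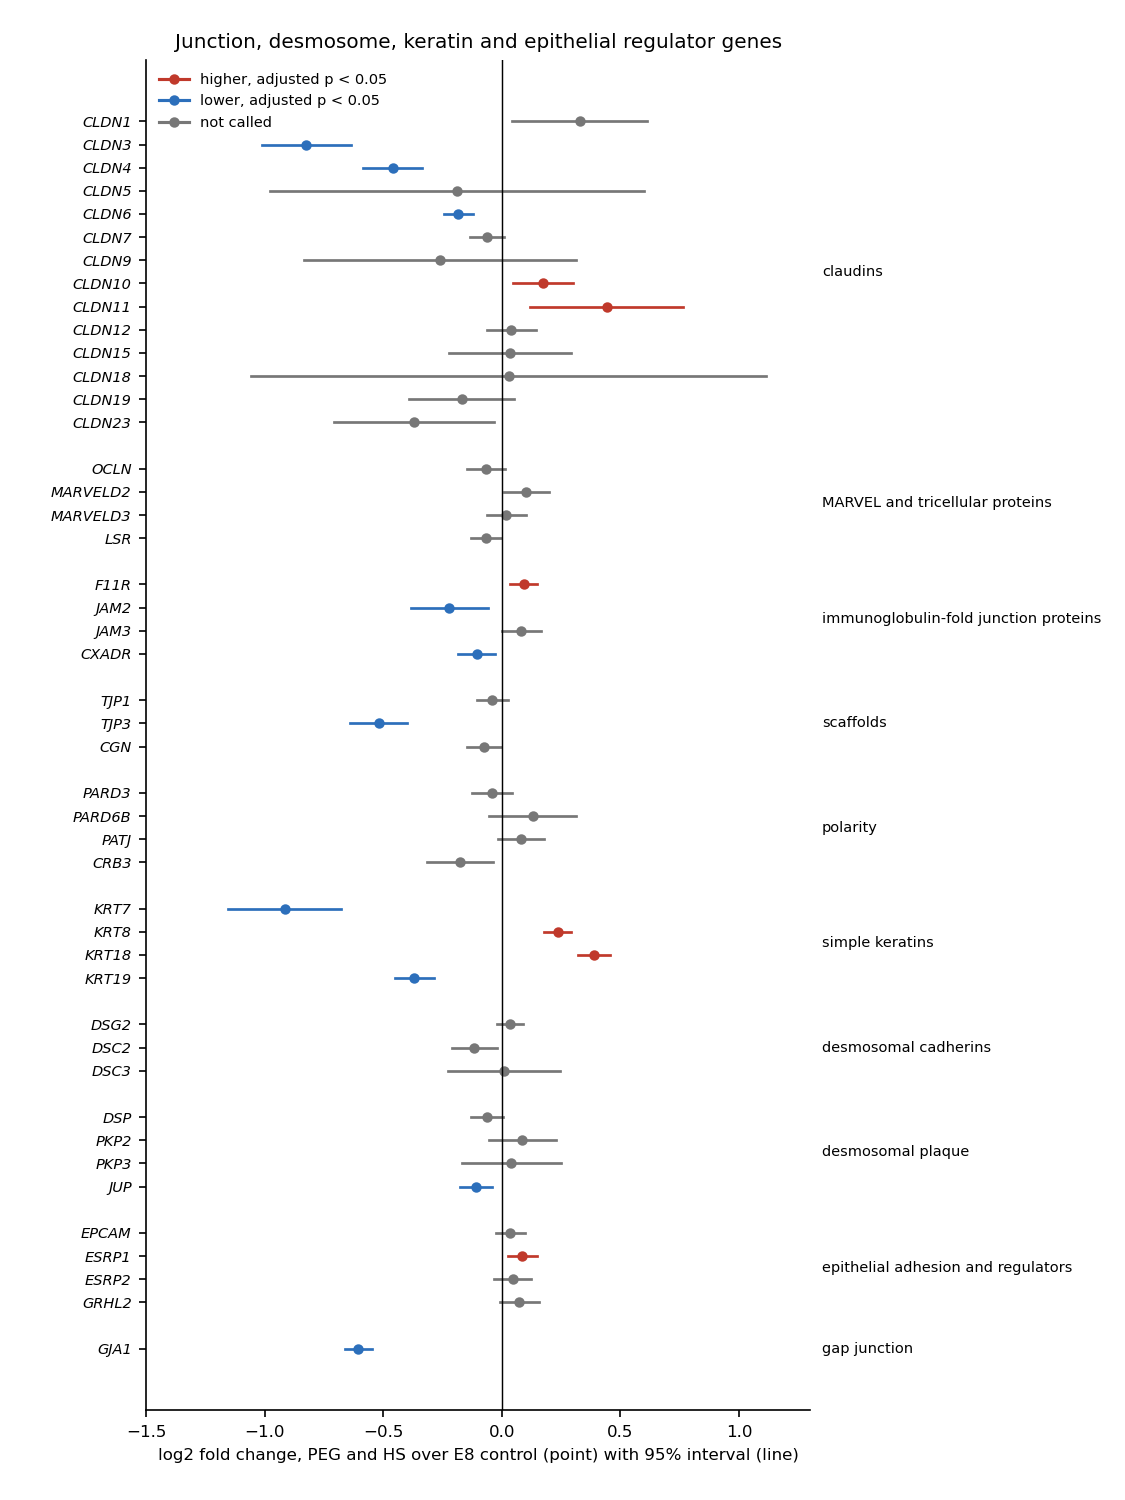
Log2 fold change of each of the 45 genes, PEG and HS over E8 control (point), with its 95% interval (line), grouped by role. Red marks the 6 genes called higher, blue the 10 called lower and grey the 29 not called. All 4 simple keratins were called, KRT8 and KRT18 to the right of 0 and KRT7 and KRT19 to the left, while every MARVEL protein, polarity gene and desmosomal cadherin is grey.

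**Figure D2:**
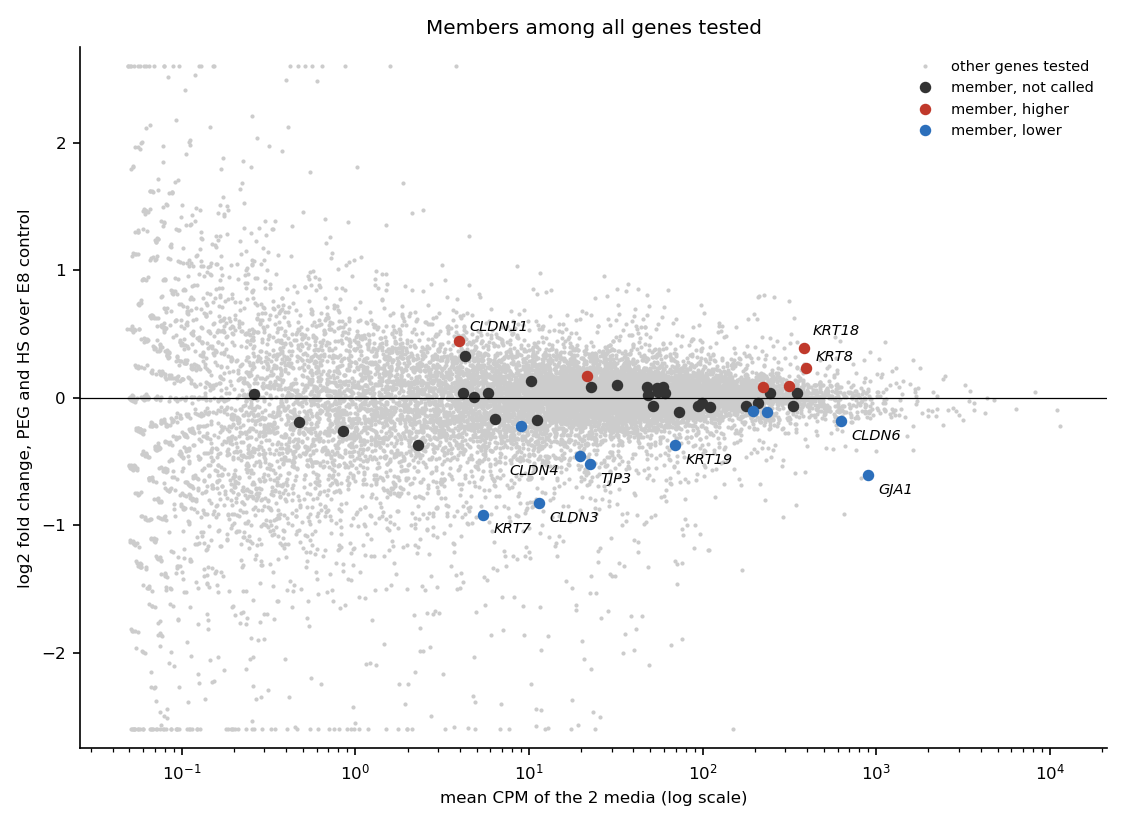
Log2 fold change (PEG and HS over E8 control) against the mean CPM of the 2 media on a log axis, for all 16505 genes tested (light grey) and the 45 genes of the set (large points, colored by call). The 99 genes beyond 2.6 in either direction are drawn at the edge. GJA1, at the right, combines a level near 899 CPM with a log2 fold change of -0.60, and the genes with larger absolute changes, KRT7 and CLDN3, lie at lower levels.

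Markers of other cell types moved in the same comparison, in which genes of the set moved both ways. The trophectoderm and amnion list holds KRT7 and KRT19, which fell, and KRT18, which rose. These keratins are left out of its sum. The 12 trophectoderm and amnion genes outside the set summed to 19.3 to 23.3 CPM in PEG and HS and to 51.3 to 62.7 CPM in E8 control. Most of this was IGFBP3, with 14.8 to 19.7 CPM in PEG and HS and 40.9 to 51.9 CPM in E8 control. Of the 12 genes, 4 fell, and CGA had no count in any library. The 8 genes GATA3, HAND1, CDX2, CGA, CGB5, ISL1, VTCN1 and TP63 were under 1 CPM in every library. TFAP2A was among the 4 that fell. It had 0.355 to 0.890 CPM in PEG and HS and 5.79 to 6.25 CPM in E8 control (adjusted p = 9.84e-09, log2 fold change -3.30 ± 0.20 SE). The 8 neuroectoderm genes, of which 7 fell, summed to 40.5 to 44.9 CPM in PEG and HS and to 142 to 147 CPM in E8 control. OTX2 alone had 17.1 to 19.4 CPM in PEG and HS and 78.2 to 81.2 CPM in E8 control. The 5 stroma genes, of which 4 fell, summed to 71.3 to 78.4 CPM and to 132 to 153 CPM. Most of this was COL1A1, with 57.4 to 63.3 CPM in PEG and HS and 115 to 126 CPM in E8 control. The 5 endoderm genes summed to at most 4.26 CPM and the 5 mesoderm genes to at most 2.73 CPM in any library, and none of them was called. The part of these cell types in the differences of the junction and keratin genes was not tested.

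GJA1, which together with CLDN6 had the highest level of the set, fell in PEG and HS. It encodes the connexin that forms most gap junctions of pluripotent cells (ENSG00000152661, chromosome 6, 121435595 to 121449727, plus strand). Its libraries had 718, 709 and 713 CPM in the PEG and HS libraries, against 1048, 1108 and 1099 CPM in the controls. The media were far apart, since the lowest control library was above the highest PEG and HS library by more than the spread within either medium. The means were 713 ± 4.38 against 1085 ± 32.6 CPM (SD, n = 3), so that the level was 1.52-fold lower (adjusted p = 1.83e-10, log2 fold change -0.60 ± 0.026 SE). A processed pseudogene, GJA1P1, holds 11.6% of the transcript sequence of GJA1 and was not among the genes counted. Of 9 other genes of the gap junction family examined, 8 were tested, 3 of them at a mean of 1 CPM or more. None was called higher, and only PANX1, a pannexin channel, was called lower (adjusted p = 0.00211, log2 fold change -0.20 ± 0.042 SE). GJC1, a connexin also above 100 CPM, had 118, 117.4 and 126 CPM in the PEG and HS libraries, against 116, 117.0 and 116 CPM in the controls. Its PEG and HS libraries were all higher, by a narrow margin, and it was not called (log2 fold change 0.054, 95% interval -0.015 to 0.12, adjusted p = 0.258). Within a library, GJA1 over GJC1 was 5.92 ± 0.231 in PEG and HS, against 9.33 ± 0.279 in E8 control (SD, n = 3), without overlap.

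The promoter letters of 4 genes lower in PEG and HS are shown to give the sequence around the start of GJA1, of the neighbouring claudin genes CLDN3 and CLDN4, and of CLDN6, the claudin of highest level. They are RefSeq windows of 300 bases (GRCh38.p14), from 250 bases before the transcript start through the first 50 bases of the transcript, read 5′ to 3′ on the strand of the gene. Capitals mark a match to an AP-1 motif (TGACTCA or, on the other strand, TGAGTCA) or to an E-box of the kind bound by SNAI and ZEB factors (CAGGTG or CACCTG). The last letters of the E-box (TG) can also begin an AP-1 match, which happened in none of the 4 windows shown.
GJA1, chr6:121435396-121435695, plus strand: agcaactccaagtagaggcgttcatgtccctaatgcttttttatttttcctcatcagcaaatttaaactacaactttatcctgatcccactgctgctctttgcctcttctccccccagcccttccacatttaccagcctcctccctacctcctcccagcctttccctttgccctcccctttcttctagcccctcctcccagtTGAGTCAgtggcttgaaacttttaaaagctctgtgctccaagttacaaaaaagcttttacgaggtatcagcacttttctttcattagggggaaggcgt
CLDN3, chr7:73770221-73770520, minus strand: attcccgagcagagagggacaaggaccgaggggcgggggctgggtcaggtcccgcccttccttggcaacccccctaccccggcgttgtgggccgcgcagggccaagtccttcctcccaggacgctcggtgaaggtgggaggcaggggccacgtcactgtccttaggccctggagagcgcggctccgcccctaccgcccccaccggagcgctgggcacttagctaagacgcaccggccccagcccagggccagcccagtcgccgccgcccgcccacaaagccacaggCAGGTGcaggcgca
CLDN4, chr7:73830746-73831045, plus strand: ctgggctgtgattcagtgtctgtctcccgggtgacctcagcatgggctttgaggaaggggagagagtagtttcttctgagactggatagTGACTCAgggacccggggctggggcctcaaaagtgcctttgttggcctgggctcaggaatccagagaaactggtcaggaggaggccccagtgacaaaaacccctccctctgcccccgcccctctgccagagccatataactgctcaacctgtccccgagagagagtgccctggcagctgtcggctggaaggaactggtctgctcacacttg
CLDN6, chr16:3018134-3018433, minus strand: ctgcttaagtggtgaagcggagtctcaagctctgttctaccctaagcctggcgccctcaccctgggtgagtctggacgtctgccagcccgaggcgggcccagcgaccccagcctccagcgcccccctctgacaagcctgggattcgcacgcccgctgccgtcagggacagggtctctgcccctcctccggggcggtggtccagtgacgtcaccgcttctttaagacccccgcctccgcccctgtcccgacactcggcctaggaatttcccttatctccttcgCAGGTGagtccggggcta
The AP-1 letters begin 48 bases before the start of GJA1 and 161 bases before that of CLDN4. The E-box letters begin 36 bases after the RefSeq start of CLDN3 and 32 bases after that of CLDN6. RefSeq windows were given for 25 of the 45 genes, 36 windows in all. The AP-1 letters occurred in 3 of these windows, those of CLDN15, CLDN4 and GJA1, and in 4.95% of all 35116 promoter windows. The E-box letters occurred in 14 of the 36 windows (38.9%), of 13 genes, and in 20.6% of all windows. The grainyhead palindrome AACCGGTT, its own reverse complement, occurred in 0 of the 36 windows and in 0.134% of all. These matches describe the letters in the windows and no binding was measured.

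The 14 claudins split between the directions. Claudins are membrane proteins that form the strands of the tight junction and set its permeability. CLDN3, CLDN4 and CLDN6 fell, CLDN10 and CLDN11 rose, and 9 were not called. Their CPM summed to 812 ± 6.65 in PEG and HS, against 902 ± 27.3 in E8 control (SD, n = 3), and the media did not overlap. On the scale of CPM per kb of exons, CLDN6 alone made up 82.8% of the claudin sum in PEG and HS and 83.3% in E8 control.

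CLDN6, a claudin of early embryonic epithelia and pluripotent cells, had 582, 594 and 585 CPM in the PEG and HS libraries, against 656, 695 and 647 CPM in the controls. The control libraries were all higher, and the difference of 11.9% was called (adjusted p = 0.000227, log2 fold change -0.18 ± 0.029 SE). CLDN3, a sealing claudin of many epithelia (ENSG00000165215, chromosome 7, 73768997 to 73770270, minus strand), had 7.83, 7.93 and 8.95 CPM in the PEG and HS libraries, against 13.3, 16.5 and 14.0 CPM in the controls. The highest PEG and HS library stayed well below the lowest control library, and the level was 1.77-fold lower (adjusted p = 4.60e-06, log2 fold change -0.82 ± 0.088 SE). CLDN4, which lies next to CLDN3 on chromosome 7 and is likewise a sealing claudin, had 15.8, 17.8 and 16.4 CPM in the PEG and HS libraries, against 22.2, 23.3 and 23.1 CPM in the controls. It also separated by medium and fell by 27.1% (adjusted p = 2.77e-05, log2 fold change -0.46 ± 0.058 SE). Both genes are of low level here, and 3.30% of the transcript sequence of CLDN3 also occurs in other genes, foremost in CLDN4. For CLDN6 that share was 15.3%, foremost in a gene that was not counted.

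CLDN10, whose protein forms paracellular ion pores, had 23.2, 21.4 and 24.2 CPM in the PEG and HS libraries, against 20.4, 19.4 and 21.3 CPM in the controls. The libraries did not overlap, by a narrow margin, and it was called higher (adjusted p = 0.0448, log2 fold change 0.17 ± 0.059 SE). That call ended without PEG and HS replicate 1 or 3, or E8 control replicate 1 or 2 (adjusted p from 0.101 to 0.168 with each left out), and with DESeq2 (adjusted p = 0.106), and the adjusted p was 0.0222 to 0.168 over the 16 other settings. CLDN11, known from myelin and Sertoli cells, had 4.48, 5.34 and 3.90 CPM in the PEG and HS libraries, against 3.67, 3.72 and 2.72 CPM in the controls. It was called higher by 35.7% at a level of a few CPM (adjusted p = 0.0437, log2 fold change 0.44 ± 0.15 SE). The call ended without PEG and HS replicate 1 or 2, or E8 control replicate 1 or 3 (adjusted p from 0.0531 to 0.183 with each left out), with DESeq2 (adjusted p = 0.0733), and when the counts of a listed readthrough gene with which it shares exons were added (adjusted p = 0.0743). Over the 16 settings its adjusted p was 0.0141 to 0.183.

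Among the claudins that were not called, CLDN7, which binds EPCAM in epithelia, had 89.2, 95.02 and 92.6 CPM in the PEG and HS libraries, against 94.7, 99.1 and 95.1 CPM in the controls. Its libraries overlapped and the log2 fold change was -0.063, with a 95% interval of -0.14 to 0.0093 (adjusted p = 0.202). CLDN12, which lacks the usual scaffold-binding tail of claudins, had 62.6, 60.1 and 61.8 CPM in the PEG and HS libraries, against 56.4, 57.6 and 65.3 CPM in the controls. E8 control replicate 3 was the highest of the 6 libraries and replicate 1 the lowest, and the log2 fold change was 0.039, with a 95% interval of -0.064 to 0.14 (adjusted p = 0.611). CLDN1, a claudin of the skin barrier, had 5.25, 3.75 and 5.23 CPM in the PEG and HS libraries, against 3.82, 3.72 and 3.85 CPM in the controls. PEG and HS replicate 2 lay within the control range while the other two lay above it (log2 fold change 0.33, 95% interval 0.043 to 0.61, adjusted p = 0.0885). Without that replicate CLDN1 was called (adjusted p = 0.0135, in a range of 0.0135 to 0.293 over the 16 settings).

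CLDN19, a claudin of kidney and retina, had 6.61, 5.77 and 5.53 CPM in the PEG and HS libraries, against 6.38, 7.54 and 6.24 CPM in the controls, with overlapping libraries (log2 fold change -0.17, 95% interval -0.39 to 0.052, adjusted p = 0.266). CLDN15, a cation pore of the intestine, had 4.60, 3.82 and 4.20 CPM in the PEG and HS libraries, against 4.52, 3.85 and 4.02 CPM in the controls, and its libraries overlapped nearly completely (log2 fold change 0.034, 95% interval -0.22 to 0.29, adjusted p = 0.875). CLDN23 had 1.96, 1.77 and 2.30 CPM in the PEG and HS libraries, against 2.67, 2.55 and 2.605 CPM in the controls. All control libraries of CLDN23 were the higher ones, yet its interval reached close to 0 and it was not called (log2 fold change -0.37, 95% interval -0.71 to -0.031, adjusted p = 0.105). The other three claudins stayed under a mean of 1 CPM in both media, namely the endothelial CLDN5, the inner ear claudin CLDN9 and CLDN18 of lung and stomach. Their means were 0.446 ± 0.157 against 0.508 ± 0.0568 CPM (SD, n = 3) for CLDN5, 0.779 ± 0.140 against 0.929 ± 0.0679 CPM for CLDN9, and 0.268 ± 0.109 against 0.253 ± 0.117 CPM for CLDN18. The libraries overlapped for all of them. The 95% intervals of the log2 fold change were -0.98 to 0.60 for CLDN5, -0.83 to 0.31 for CLDN9 and -1.06 to 1.11 for CLDN18. A 1.5-fold lower level lay within all of these intervals, and a 1.5-fold higher level within those of CLDN5 and CLDN18 but not of CLDN9.

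None of the 4 MARVEL and tricellular proteins was called by edgeR, DESeq2 or limma-voom, and 2 had an unadjusted edgeR p under 0.05 (MARVELD2 and LSR). OCLN, occludin, had 50.9, 52.1 and 49.2 CPM in the PEG and HS libraries, against 52.3, 53.0 and 53.9 CPM in the controls. The PEG and HS libraries were all lower by a small margin (log2 fold change -0.067, 95% interval -0.15 to 0.012, adjusted p = 0.214). MARVELD2, tricellulin, which seals the points where cells meet at a corner, had 34.3, 32.9 and 32.9 CPM in the PEG and HS libraries, against 30.7, 30.3 and 32.1 CPM in the controls. Here the PEG and HS libraries were all higher (log2 fold change 0.10, 95% interval 0.0071 to 0.20, adjusted p = 0.111). MARVELD3 had 48.5, 48.1 and 49.0 CPM in the PEG and HS libraries, against 45.8, 48.8 and 49.0 CPM in the controls, and its libraries overlapped (log2 fold change 0.018, 95% interval -0.064 to 0.10, adjusted p = 0.780). LSR, an angulin that brings tricellulin to those corners, had 171, 179 and 173 CPM in the PEG and HS libraries, against 187, 180.3 and 180.1 CPM in the controls. Its libraries were lower in PEG and HS by a narrow margin (log2 fold change -0.065, 95% interval -0.13 to -0.0024, adjusted p = 0.124). The intervals of all 4 genes excluded a change of 1.5-fold.

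Of the immunoglobulin-fold proteins of the junction, F11R rose, JAM2 and CXADR fell, and JAM3 was not called. F11R, junctional adhesion molecule A, had 317, 326 and 331 CPM in the PEG and HS libraries, against 308, 304 and 302 CPM in the controls. Its libraries separated by medium with a difference of 6.54% (adjusted p = 0.0186, log2 fold change 0.092 ± 0.026 SE). The call ended without PEG and HS replicate 3, or E8 control replicate 2 or 3 (adjusted p from 0.0538 to 0.0649 with each left out) and when the counts of an overlapping readthrough gene, which holds 35.4% of its sequence, were added (adjusted p = 0.0527), in a range of 0.00813 to 0.0649 over the 16 settings. JAM2 had 8.16, 8.25 and 8.63 CPM in the PEG and HS libraries, against 9.16, 9.54 and 10.4 CPM in the controls. All PEG and HS libraries were below the controls (adjusted p = 0.0448, log2 fold change -0.22 ± 0.076 SE), and the call ended without PEG and HS replicate 1, 2 or 3, or E8 control replicate 2 or 3 (adjusted p from 0.0568 to 0.183 with each left out). It also ended with DESeq2 (adjusted p = 0.163), limma-voom (0.0530) and scaling by library size alone (0.0523), in a range of 0.0322 to 0.183 over the 16 settings.

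CXADR, the coxsackievirus and adenovirus receptor, had 195, 187 and 183 CPM in the PEG and HS libraries, against 201, 193 and 213 CPM in the controls. It is the 1 called gene of the set whose libraries overlapped, since PEG and HS replicate 1 exceeded E8 control replicate 2 (adjusted p = 0.0451, log2 fold change -0.11 ± 0.036 SE). Its call ended without PEG and HS replicate 2 or 3, or E8 control replicate 1 or 3 (adjusted p from 0.0846 to 0.205 with each left out) and with scaling by library size alone (adjusted p = 0.0710), in a range of 0.0161 to 0.205. Other genes hold 12.1% of the transcript sequence of CXADR, foremost a gene that was not counted. JAM3 had 47.6, 50.6 and 49.8 CPM in the PEG and HS libraries, against 46.4, 46.2 and 47.1 CPM in the controls. The libraries of JAM3 were all higher in PEG and HS, by 5.97% in the mean, but it was not called (log2 fold change 0.082, 95% interval 0.00075 to 0.16, adjusted p = 0.135).

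Of the 3 scaffolds only TJP3 was called, and it fell. TJP3 encodes a zonula occludens protein that binds claudins on the cytoplasmic side (ENSG00000105289, chromosome 19, 3708362 to 3750813, plus strand). It had 18.4, 17.2 and 19.7 CPM in the PEG and HS libraries, against 25.9, 26.1 and 27.3 CPM in the controls. The media were well separated, with a level 1.44-fold lower in PEG and HS (adjusted p = 6.39e-06, log2 fold change -0.52 ± 0.057 SE). Its paralog TJP1, the scaffold most used as a tight junction marker, had 203, 199.8 and 212 CPM in the PEG and HS libraries, against 207, 207 and 217 CPM in the controls. The libraries of TJP1 overlapped (log2 fold change -0.040, 95% interval -0.11 to 0.027, adjusted p = 0.395). CGN, cingulin, which links the junction to actomyosin, had 108, 105 and 111 CPM in the PEG and HS libraries, against 109.6, 116 and 116 CPM in the controls. Its libraries overlapped (log2 fold change -0.076, 95% interval -0.15 to -0.0039, adjusted p = 0.118).

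None of the 4 polarity genes was called by edgeR, DESeq2 or limma-voom, and 1 had an unadjusted edgeR p under 0.05 (CRB3). PARD3, which recruits the Par complex to the junction, had 99.0, 92.6 and 100.3 CPM in the PEG and HS libraries, against 99.8, 105 and 95.8 CPM in the controls. PARD6B, the partner of atypical protein kinase C in that complex, had 9.76, 10.7 and 11.8 CPM in the PEG and HS libraries, against 9.45, 9.23 and 10.7 CPM in the controls. The libraries overlapped for both, in PARD3 (log2 fold change -0.042, 95% interval -0.13 to 0.043, adjusted p = 0.491) as in PARD6B (log2 fold change 0.13, 95% interval -0.053 to 0.31, adjusted p = 0.306). PATJ, a scaffold of the Crumbs complex, had 57.2, 63.4 and 62.1 CPM in the PEG and HS libraries, against 57.7, 54.5 and 60.3 CPM in the controls. Its libraries also overlapped (log2 fold change 0.081, 95% interval -0.018 to 0.18, adjusted p = 0.233). CRB3, the membrane protein of the Crumbs complex in epithelia, had 10.5, 10.8 and 10.2 CPM in the PEG and HS libraries, against 12.1, 11.9 and 11.7 CPM in the controls. All control libraries of CRB3 were the higher ones, and it missed the limit (log2 fold change -0.18, 95% interval -0.31 to -0.037, adjusted p = 0.0607). It was called when only genes at 1 CPM or more in at least 3 libraries were tested (adjusted p = 0.0484, in a range of 0.0484 to 0.223 over the 16 settings).

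All 4 simple keratins were called, and they moved in opposite directions. KRT8 and KRT18, the pair that makes the first keratin filaments of the embryo, rose. KRT7 and KRT19, keratins of ducts, fell. KRT18 (ENSG00000111057, chromosome 12, 52948871 to 52952906, plus strand) had 424, 426 and 460.3 CPM in the PEG and HS libraries, against 336, 334 and 331 CPM in the controls. PEG and HS replicate 3 was the highest, and even the lowest PEG and HS library lay far above the controls (1.31-fold, adjusted p = 2.16e-07, log2 fold change 0.39 ± 0.031 SE). KRT8 (ENSG00000170421, chromosome 12, 52897187 to 52949954, minus strand) had 417, 418 and 437 CPM in the PEG and HS libraries, against 367, 359 and 355 CPM in the controls. It rose by 17.7% without overlap (adjusted p = 1.23e-05, log2 fold change 0.24 ± 0.027 SE).

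KRT19 (ENSG00000171345, chromosome 17, 41523617 to 41528308, minus strand) had 58.3, 59.3 and 64.0 CPM in the PEG and HS libraries, against 77.5, 77.6 and 79.6 CPM in the controls. The control libraries lay close together and above the others, and the fall was 1.29-fold (adjusted p = 3.46e-06, log2 fold change -0.37 ± 0.038 SE). KRT7 (ENSG00000135480, chromosome 12, 52232520 to 52252186, plus strand) had 3.23, 3.72 and 4.34 CPM in the PEG and HS libraries, against 6.78, 7.14 and 7.37 CPM in the controls. At 1.89-fold this was the largest fold between the media in the set (adjusted p = 1.90e-05, log2 fold change -0.92 ± 0.11 SE), in the least abundant of the 4 keratins.

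Ratios of the CPM of a keratin to that of another, not corrected for length, were taken within each library. KRT18 over KRT19 was 7.22 ± 0.0511 in PEG and HS, against 4.26 ± 0.0978 in E8 control (SD, n = 3). KRT8 over KRT7 was 114 ± 14.2 in PEG and HS, against 50.9 ± 2.97 in E8 control. KRT8 over KRT18, the type II over the type I partner, was 0.971 ± 0.0185 in PEG and HS, against 1.08 ± 0.00955 in E8 control. The CPM of the 4 keratins summed to 926 ± 35.0 in PEG and HS, against 779 ± 7.21 in E8 control. No ratio or sum of these overlapped between the media. The ratios were not tested, and an exact permutation test of 3 libraries against 3 cannot give a two-sided p below 0.1.

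The keratins have limits of counting. KRT8 and KRT18 overlap at their ends on opposite strands, and the sources used here do not say whether the counting used strand. Other genes hold 19.0% of the sequence of KRT8 and 29.4% of that of KRT18, foremost processed pseudogenes that were not among the genes counted, against 6.42% for KRT19 and 2.06% for KRT7. KRT7 overlaps KRT86, a hair keratin, on the same strand. Of the called genes outside the keratins, CLDN6, CLDN10, JAM2 and TJP3 each overlap a counted gene on the opposite strand (TNFRSF12A, DZIP1, ATP5PF and APBA3). Of the genes not called, CLDN7, MARVELD3, JAM3, CRB3 and ESRP2 do so too, and the same doubt holds for all of these.

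**Figure D3:**
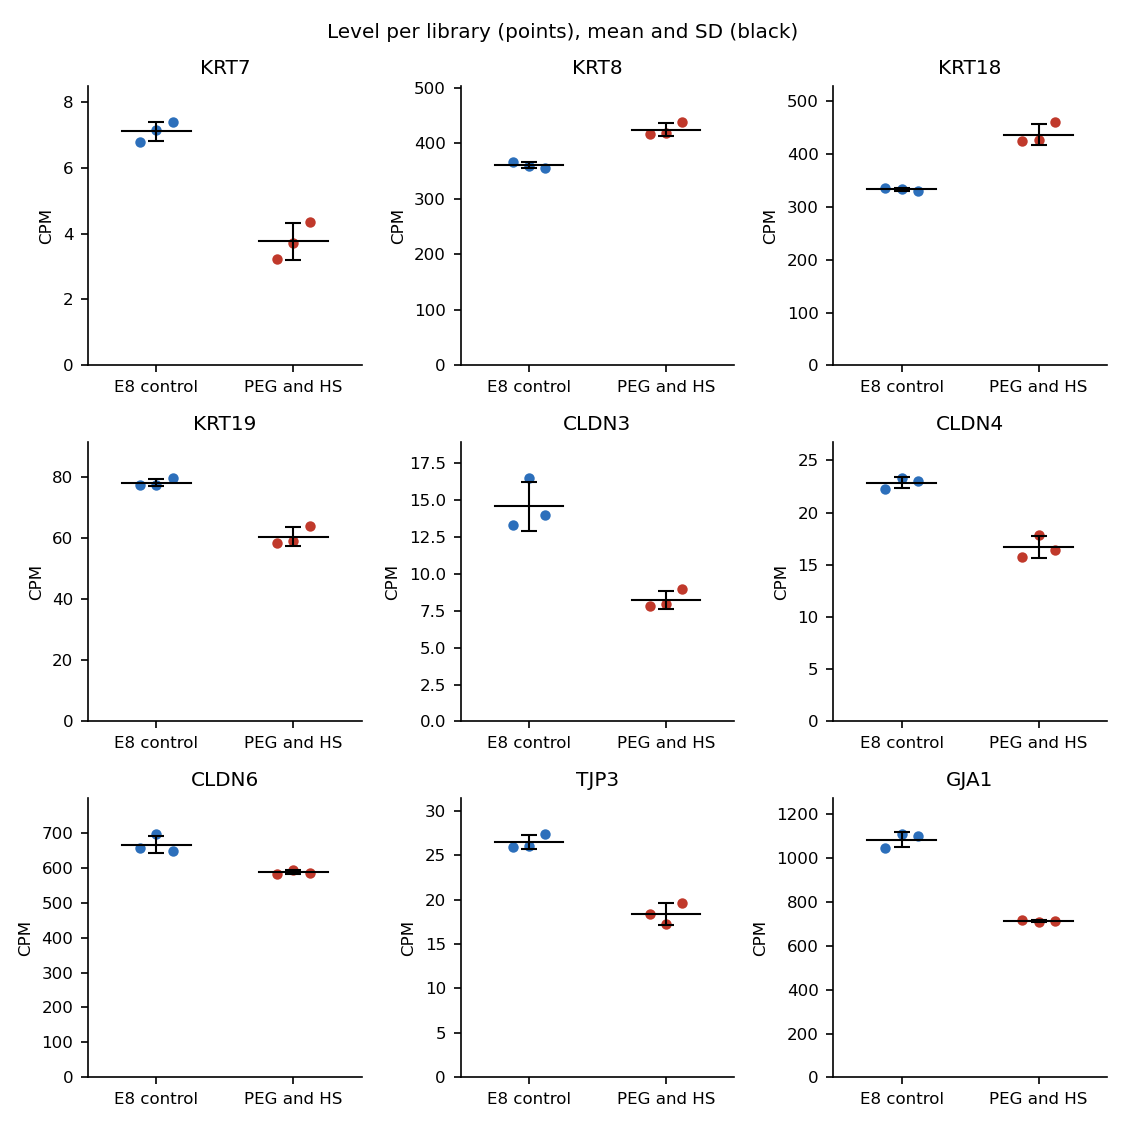
CPM of 9 genes in each library (points, 3 per medium), with the mean (long bar) and SD (short bars), on linear axes from 0. These are the genes that kept their call in every other setting run against a null of no difference and counted them singly. In every panel the blue E8 control points and the red PEG and HS points do not overlap, and only KRT8 and KRT18 are higher in PEG and HS.

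**Figure D4:**
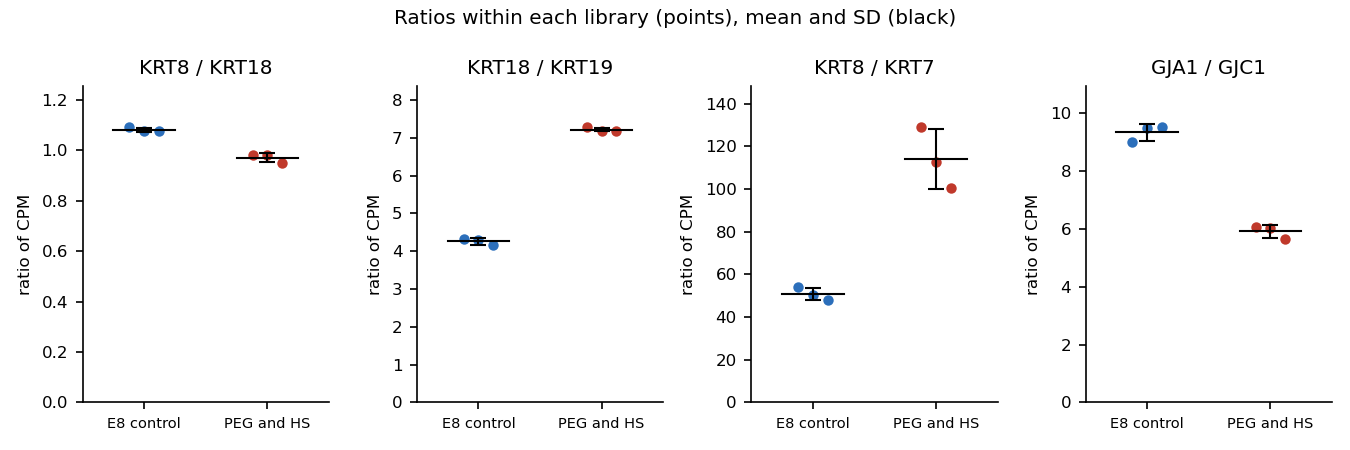
Ratio of the CPM of 2 genes within each library (points, 3 per medium), with mean and SD in black, on linear axes from 0. KRT18 over KRT19 and KRT8 over KRT7 are higher in PEG and HS, and KRT8 over KRT18 and GJA1 over GJC1 are lower, without overlap in any panel.

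The desmosome genes differed little. None of the 3 desmosomal cadherins was called by edgeR, DESeq2 or limma-voom, and 1 had an unadjusted edgeR p under 0.05 (DSC2). DSG2, the main desmoglein of simple epithelia, had 359, 351 and 353 CPM in the PEG and HS libraries, against 343, 343 and 352 CPM in the controls. Its libraries overlapped and the log2 fold change was 0.036, with a 95% interval of -0.018 to 0.090 (adjusted p = 0.344). DSC2, its desmocollin partner, had 71.7, 67.4 and 72.8 CPM in the PEG and HS libraries, against 75.5, 72.3 and 81.8 CPM in the controls. It missed the limit (log2 fold change -0.12, 95% interval -0.21 to -0.020, adjusted p = 0.0741) but was called without E8 control replicate 2 and in 3 of the other settings (filterByExpr, at least 1 CPM in 3 libraries, and the replicate block), with adjusted p values of 0.0166 to 0.328 over the 16 settings. DSC3, a desmocollin of stratified epithelia, had 5.22, 4.74 and 4.58 CPM in the PEG and HS libraries, against 5.41, 4.49 and 4.63 CPM in the controls, with overlapping libraries (log2 fold change 0.0078, 95% interval -0.23 to 0.24, adjusted p = 0.974).

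In the desmosomal plaque only JUP was called. JUP, plakoglobin, an armadillo protein shared by desmosomes and adherens junctions, had 217, 236 and 225 CPM in the PEG and HS libraries, against 249.7, 243 and 239 CPM in the controls. The PEG and HS libraries were all lower, by 7.28% in the mean (adjusted p = 0.0215, log2 fold change -0.11 ± 0.032 SE), and the call ended without PEG and HS replicate 1 or 3, or E8 control replicate 1 (adjusted p from 0.0512 to 0.119 with each left out). Over the 16 settings the adjusted p of JUP was 0.00605 to 0.119. DSP, desmoplakin, which ties the plaque to keratin, had 322, 320.1 and 329.7 CPM in the PEG and HS libraries, against 323, 338 and 353 CPM in the controls. Its libraries overlapped (log2 fold change -0.062, 95% interval -0.13 to 0.0058, adjusted p = 0.179), and it was called only without E8 control replicate 1 (adjusted p = 0.0496, in a range of 0.0496 to 0.558). PKP2 and PKP3 are plakophilins, armadillo proteins of the plaque. PKP2 had 24.0, 23.9 and 23.1 CPM in the PEG and HS libraries, against 19.5, 23.6 and 23.5 CPM in the controls. E8 control replicate 1 stood below the other 5 libraries (log2 fold change 0.087, 95% interval -0.055 to 0.23, adjusted p = 0.382). PKP3 had 6.02, 5.80 and 5.82 CPM in the PEG and HS libraries, against 5.93, 6.16 and 5.13 CPM in the controls, with overlapping libraries (log2 fold change 0.040, 95% interval -0.17 to 0.25, adjusted p = 0.809).

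Among the epithelial adhesion and regulator genes, ESRP1 rose slightly and the others were not called. EPCAM, the epithelial cell adhesion molecule used to identify pluripotent cells, had 251, 242 and 252 CPM in the PEG and HS libraries, against 244, 235 and 247 CPM in the controls. Its libraries overlapped (log2 fold change 0.035, 95% interval -0.027 to 0.097, adjusted p = 0.422). ESRP1, a splicing factor that selects epithelial isoforms, had 233, 231 and 229 CPM in the PEG and HS libraries, against 214, 214 and 225 CPM in the controls. The PEG and HS libraries were all higher, by 6.19% in the mean (adjusted p = 0.0374, log2 fold change 0.086 ± 0.028 SE), and the call ended without PEG and HS replicate 1, 2 or 3, or E8 control replicate 1 or 2 (adjusted p from 0.0549 to 0.161 with each left out). In the 16 settings it was 0.0148 to 0.161. Its paralog ESRP2 had 54.7, 57.9 and 56.3 CPM in the PEG and HS libraries, against 55.1, 54.2 and 54.3 CPM in the controls. The libraries of ESRP2 overlapped (log2 fold change 0.045, 95% interval -0.031 to 0.12, adjusted p = 0.399), and ESRP1 over ESRP2 overlapped as well, at 4.10 ± 0.135 in PEG and HS, against 3.99 ± 0.135 in E8 control. GRHL2, a grainyhead transcription factor that activates epithelial junction genes, had 53.9, 58.5 and 55.6 CPM in the PEG and HS libraries, against 53.6, 53.6 and 52.3 CPM in the controls. Its libraries were all higher in PEG and HS, by 5.29% in the mean, and it was not called (log2 fold change 0.073, 95% interval -0.0090 to 0.16, adjusted p = 0.192).

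Levels of different genes were compared in E8 control as CPM per kb of merged exon length. CLDN6 was the highest (383 ± 14.6 CPM per kb, SD, n = 3), followed by GJA1 (319.6 ± 9.60), KRT18 (109 ± 0.886), EPCAM (99.7 ± 2.46), LSR (62.5 ± 1.295), F11R (60.2 ± 0.546) and KRT8 (52.4 ± 0.848). The control libraries of these 7 genes did not overlap between neighbours in this order. Of the 44 neighbouring pairs in the whole order, 17 overlapped, the first being CXADR (33.6 ± 1.62) and KRT19 (33.5 ± 0.515). The lowest were CLDN9, CLDN5 and CLDN18, at 0.587 ± 0.0429, 0.148 ± 0.0166 and 0.0680 ± 0.0315 CPM per kb. The order depends on the length used. With the length of the MANE Select transcript, CLDN6, GJA1 and KRT18 remained the first 3 and KRT8 moved from rank 7 to rank 4, with 202 CPM per kb in place of 52.4.

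**Figure D5:**
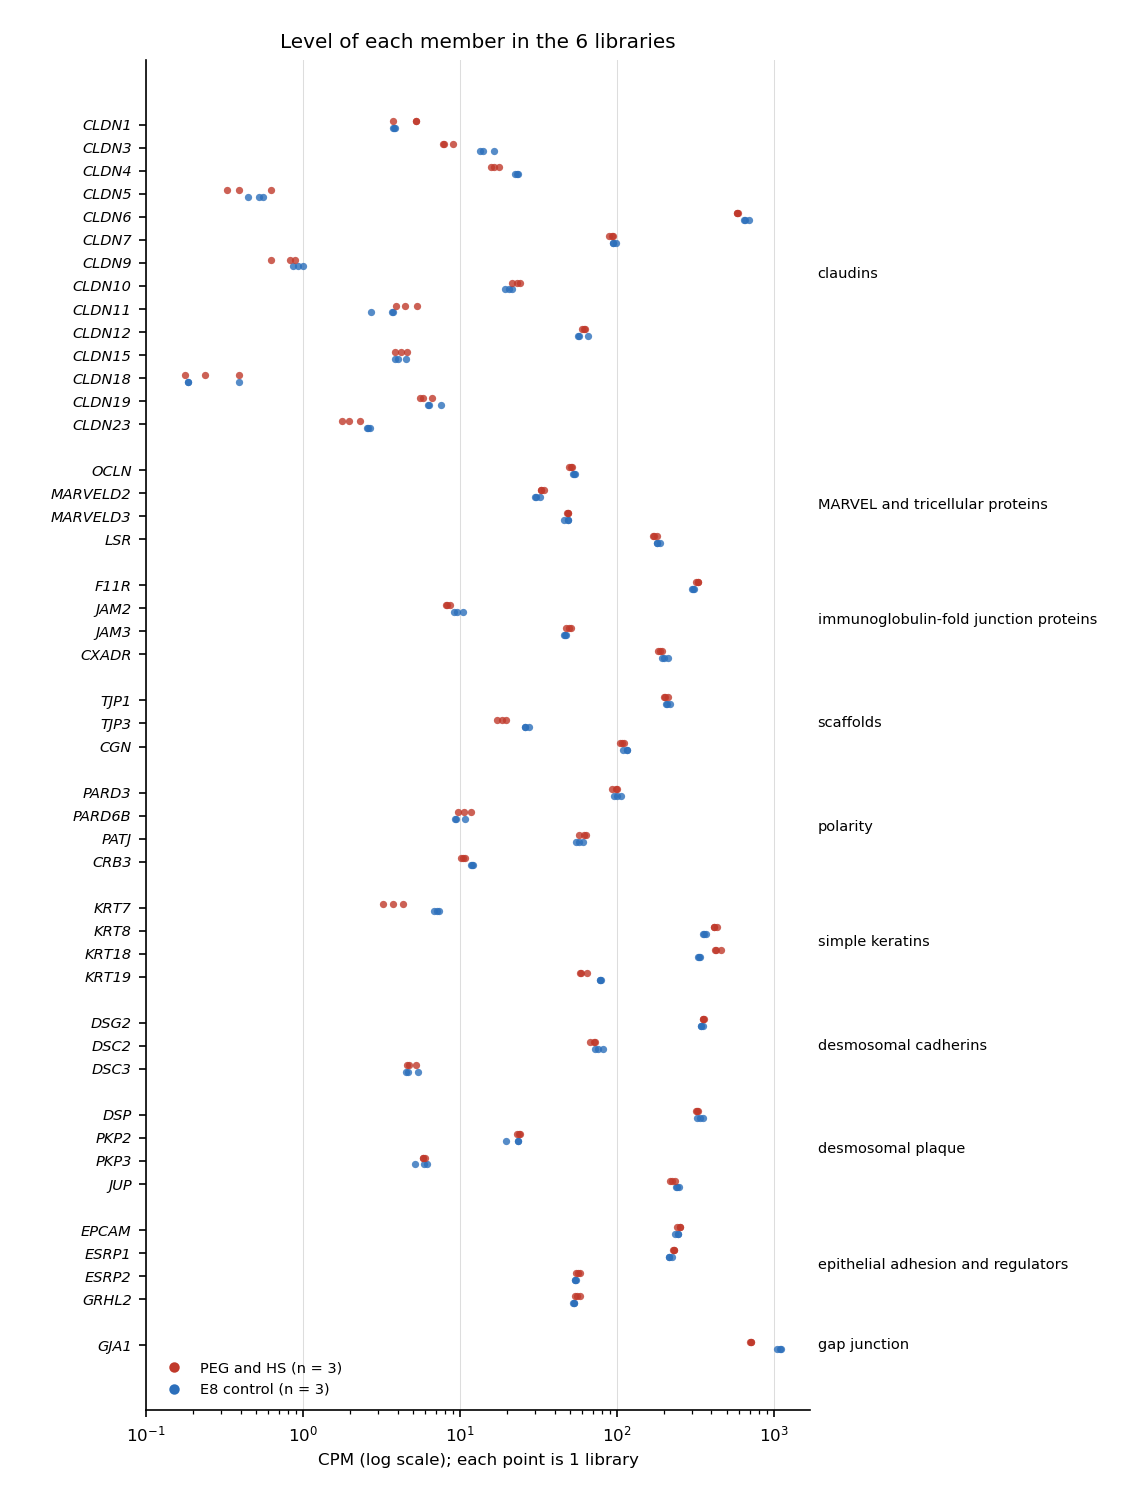
CPM of the 45 genes in each library on a log axis, not corrected for length, grouped by role (red, PEG and HS; blue, E8 control; 3 points each). The levels span from CLDN18, under 1 CPM, to GJA1, over 700 CPM, and in most rows the colors lie side by side.

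Outside the 45 genes, 97 other genes of cell contacts and the epithelial state were examined in 7 lists, of which 80 were tested. With PEG and HS, 7 of them were higher and 22 lower by the same test. The median log2 fold change was -0.055, and 36.2% were called. Among all genes tested 25.3% were called, and 29.6% of those at a mean of 1 CPM or more. The adherens junction list had a median level of 214 CPM, against 18.9 CPM over all genes tested. It had the most calls, with 1 of 13 higher and 7 lower. Among them CDH1, E-cadherin, fell from 584 ± 19.2 to 445 ± 10.9 CPM (adjusted p = 1.01e-07, log2 fold change -0.39 ± 0.030 SE). NECTIN2 and NECTIN3, nectin adhesion molecules, fell too (log2 fold changes -0.41 and -0.37), and SHROOM3, which drives apical constriction, rose (0.23). The catenin CTNNB1, the partner of E-cadherin and a paralog of JUP, was not called (log2 fold change -0.058, 95% interval -0.11 to -0.0034, adjusted p = 0.115). Its PEG and HS libraries were all lower, at 505 to 519 CPM, against 523 to 541 CPM in the controls.

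Other polarity genes moved both ways, 3 of 15 higher and 3 lower. PRKCI, the atypical protein kinase C of the Par complex, rose (adjusted p = 1.24e-05, log2 fold change 0.30 ± 0.035 SE), as did AMOTL1 (0.31) and LIN7C (0.23). CRB2, the Crumbs protein of neuroepithelium, fell (adjusted p = 1.41e-08, log2 fold change -1.62 ± 0.10 SE). AMOTL2 (-0.68) and AMOT (-0.35), angiomotins like AMOTL1, fell as well. Of other tight junction genes, 12 of 17 were tested and 2 were lower, CGNL1 (-0.41), a paralog of CGN, and MAGI1 (-0.20), a junction scaffold.

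Of other desmosome and intermediate filament genes, 8 of 19 were tested and 3 were lower. VIM, vimentin, the filament protein of mesenchyme and neural progenitors, fell from 55.1 ± 5.93 to 25.4 ± 2.53 CPM (adjusted p = 3.56e-08, log2 fold change -1.12 ± 0.077 SE). PPL, periplakin, fell less (-0.29), and the third gene, PKP1, was under 1 CPM. Among 16 other epithelial genes 3 were higher and 4 lower. The grainyhead paralogs of GRHL2 differed in direction, GRHL1 being higher (adjusted p = 0.0221, log2 fold change 0.26 ± 0.077 SE) and GRHL3 lower (adjusted p = 6.12e-07, log2 fold change -1.69 ± 0.15 SE). ELF3, an epithelial transcription factor, also fell (adjusted p = 4.41e-08, log2 fold change -1.20 ± 0.085 SE). MYO5B fell less (-0.33), and RAB25 (0.20) and PRSS8 (0.14) rose. Of 8 regulators of epithelial-mesenchymal transition, 2 were lower, ZEB2 (adjusted p = 1.55e-06, log2 fold change -1.81 ± 0.17 SE) and CDH2, N-cadherin (-0.25).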

How the data were processed

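Bulk RNA was sequenced from 3 libraries of PEG and HS and 3 of E8 control. The authors enriched polyadenylated RNA, made stranded libraries, trimmed reads with Trim Galore 0.6.7, mapped them to GRCh38 with STAR 2.6.1 (nf-core/rnaseq 3.6), and deposited raw counts per gene for each library. The counting tool, whether it used strand and how it counted reads with several matches are not given in the sources used here. Transcripts with near-identical copies are therefore uncertain.

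Symbols, coordinates and exon lengths came from GENCODE 44, which matched 19916 of the 19977 identifiers. The 16505 genes that summed to 10 counts or more over the libraries were compared by edgeR 4.0.16 in R 4.3.3, with TMM factors, the quasi-likelihood F test without covariates, and p-values adjusted by Benjamini-Hochberg over all of them. The SE was obtained by dividing the size of the log2 fold change by the square root of F, and intervals are at 95%. The common biological coefficient of variation was 3.12%, and pairs of replicates gave a chi-square of 2.58 to 3.52 per degree of freedom, above sampling noise. CPM is scaled for depth and not for length. Shared sequence is the percent of 31-base words of a gene's transcripts found in the transcripts of any other gene as well. Alternatives were DESeq2 1.42.0, limma-voom (limma 3.58.1), other normalizations and filters, a block for the replicate number, leaving out each library, a null difference of 1.5-fold, summed paralog pairs and, chosen after seeing the data, summed readthrough genes and MANE Select lengths. The scripts were tested on simulated counts.

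The genes of the set and all gene lists were chosen with earlier results of these data known. Every gene of the set is named. Values in each library are given for genes at 1 CPM or more in each library of at least 1 medium, and of the other lists up to 3 called genes per direction are named by the size of their change. Genes singled out beyond that rule (CTNNB1, GJC1, PKP1, IGFBP3, TFAP2A, OTX2 and COL1A1) were chosen after their values were seen. A result for 1 gene is not reported here.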

Additional observations from a re-analysis of the deposited data

How the results depend on the processing

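In 17 other settings no called gene of the set changed direction. CLDN3, CLDN4, CLDN6, TJP3, KRT7, KRT8, KRT18, KRT19 and GJA1 stayed called in each of the 16 settings that tested against no difference (CLDN4 in 15, being summed with CLDN3 in the other), and CLDN10, CLDN11, F11R, JAM2, CXADR, JUP and ESRP1 lost the call in at least 1 of them. Tested against a difference of 1.5-fold in place of 0 (glmTreat), 264 of all genes and 0 of the 45 were called, 0 higher and 0 lower, with KRT7 (adjusted p = 0.0642) and CLDN3 (adjusted p = 0.0998) nearest to the limit and an unadjusted p under 0.05 for these 2. Leaving out each library in turn gave 10 to 13 genes of the set, with 3 to 5 higher and 7 to 10 lower, and 3114 to 3674 of all genes. The count of 10 arose without PEG and HS replicate 3. The count of 3 higher arose without PEG and HS replicate 1 or 3, or E8 control replicate 1 or 2. DESeq2 called 13 of the 45 (4 higher, 9 lower) and limma-voom 15. The other normalizations and filters and the 2 ways of summing shared counts called 14 to 18. The replicate numbers do not pair the libraries, since deviations of same-numbered libraries from their medium's mean had correlations of 0.003, -0.018 and 0.054 over 10069 genes. With the replicate number as a block, 17 of the 45 were called (6 higher, 11 lower) and 4444 of all genes, with DSC2 the gene gained. At this depth the intervals of 5 genes not called, all claudins of few CPM, reached a 1.5-fold change. The causes of the lost calls were not tested.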
